A study of Mus musculus with 12 samples.

Results

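Mice carrying prostate tumours were given an antibody against CSF1, Lupron, both or neither, and RNA of the whole tumour was sequenced. The question addressed here is for which genes the effect of the antibody depended on Lupron. All 12 tumours of the series were used, 3 in each of 4 groups, and the test ran over the whole table: 15082 of the 23479 gene symbols in the count table had enough counts to be tested. For each gene the antibody effect with Lupron (Lupron/anti-CSF1 minus Lupron) was compared with the antibody effect without Lupron (anti-CSF1 minus IgG), on the log2 scale. The first minus the second is called the interaction estimate. It is above 0 where the antibody lowered a gene less, or raised it more, in mice given Lupron, and below 0 in the opposite case. The ± after an estimate is a standard error derived from edgeR's quasi-likelihood F test, as the absolute estimate divided by the square root of F. The fit to all 12 tumours holds 3 libraries per group. Intervals are approximate 95% intervals built from this standard error.

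All mice were C57BL/6J and had 100000 cells of the line PTE-82 injected into the prostate, suspended in 40 µl of a PBS and Matrigel mixture. PTE-82 is a prostate cancer line that, per the labels, expresses the TMPRSS2-ERG fusion, so the tumours of all 4 groups come from 1 line. The IgG group received control IgG and the anti-CSF1 group the antibody, both on days 9 and 14. Mice of the Lupron group received 0.6 mg of Lupron on day 4, and mice of the Lupron/anti-CSF1 group received Lupron on day 4 and the antibody on days 9 and 14; the last group is called the combination from here on. The sources used here do not say whether Lupron mice without the antibody had a control injection, and give no age. Tumours were taken after perfusion on day 17 and hold host cells beside the injected cells.

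CSF1 is the main growth factor of tissue macrophages. It binds the receptor encoded by Csf1r, on which most macrophages depend for survival, and antibodies that block CSF1 deplete them. Lupron (leuprolide) acts on the pituitary and lowers testosterone, a hormone on which prostate cells depend. Tumour macrophages take up lipid and cell debris, present peptides on MHC class II molecules and secrete complement components, so the lists examined here cover these functions as well as the other cells of the prostate.

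The libraries held between 20584363 and 29965355 counts, and their RNA integrity numbers ran from 8.2 to 9.8. IgG replicate 3 stood apart from the rest. Its 12 smooth muscle markers summed to 15381 CPM (counts scaled to the TMM-adjusted library total), where no other library exceeded 3484. Its 10 fat cell markers summed to 2437 CPM, and those of the remaining libraries to between 23.4 and 364. Its 24 proliferation genes summed to 274 CPM against 1984 to 4158 elsewhere. The interaction was therefore fitted with all 12 libraries and again without IgG replicate 3. IgG replicate 2 held the next highest smooth muscle and fat sums and stayed in both fits. Lupron replicate 2 held 29.3% of its counts in seminal vesicle genes, the highest share of the 12 libraries, and also stayed in both fits.

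No gene passed a Benjamini-Hochberg adjusted p of 0.05 for the interaction in edgeR's test, with 12 libraries (0% of 15082 genes; smallest adjusted p = 0.488) or without IgG replicate 3 (0% of 15196 genes; smallest adjusted p = 1.00). At an unadjusted p under 0.05, 916 genes (6.07%) lay above 0 and 105 (0.696%) below 0 with 12 libraries. In the fit without IgG replicate 3 these numbers were 430 (2.83%) and 96 (0.632%). Limma's voom fit also called 0 genes, whereas DESeq2's Wald test called 188 with 12 libraries, of which 174 peaked in IgG replicate 3, and 30 without that library. Leaving out each of the 12 libraries in turn gave 0 called genes in edgeR except without IgG replicate 1, where 5 were called. Over all genes 48.6% of the estimates lay above 0 with 12 libraries, with a median of -0.02, and 49.9% in the other fit. All p-values measure the spread between these tumours, since the labels say nothing more of how replicates relate.

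The design bounded the interaction loosely for most genes. In the median gene the interval reached 1.13 log2 units to either side of the estimate with 12 libraries, and 0.95 without IgG replicate 3. The whole interval lay within 1 log2 unit of 0 for 3435 genes (22.8%) with 12 libraries and for 5322 (35%) without IgG replicate 3.

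**Figure D1:**
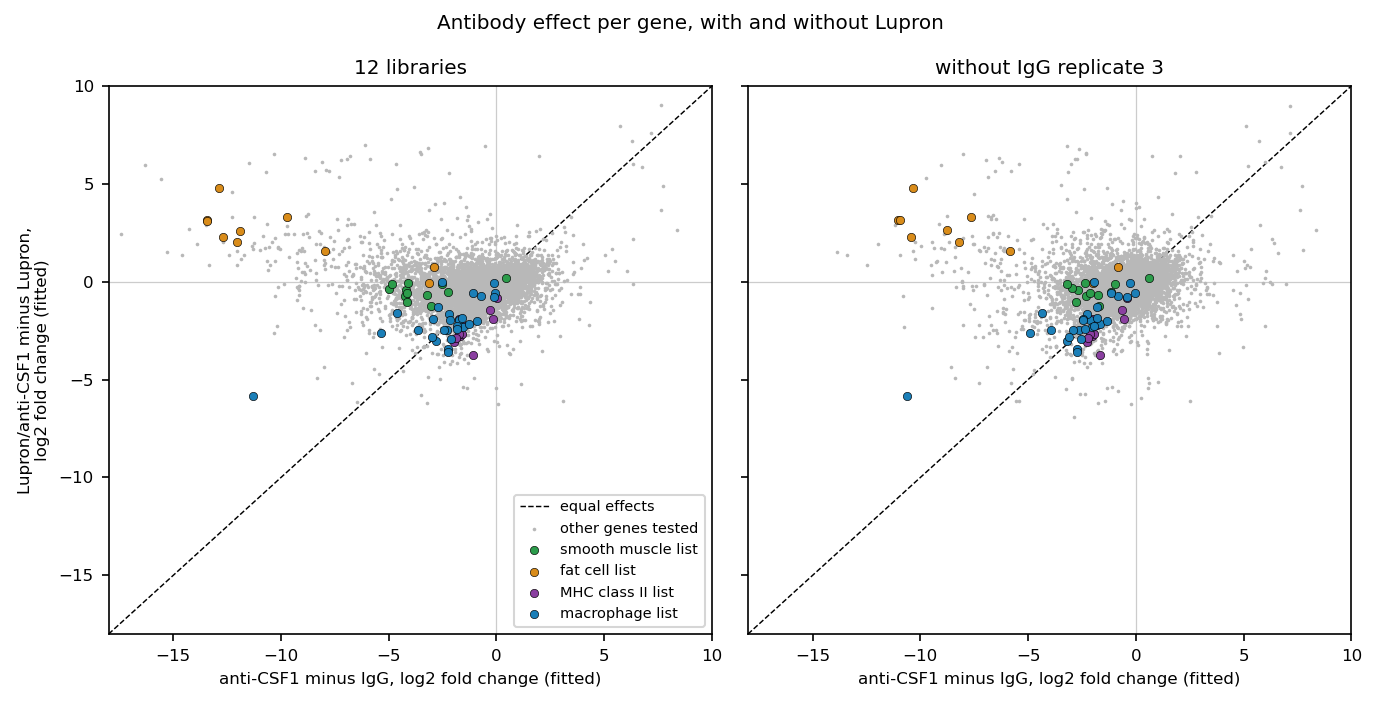
Antibody effect of each tested gene without Lupron (x axis, anti-CSF1 minus IgG) against the effect with Lupron (y axis, Lupron/anti-CSF1 minus Lupron), in fitted log2 fold changes, with 12 libraries and without IgG replicate 3. Points on the diagonal have an interaction of 0; across genes Pearson's r was 0.107 with 12 libraries and 0.215 without IgG replicate 3.

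The antibody effects themselves were clearest without IgG replicate 3. The antibody then lowered 168 genes without Lupron (1.11%) and raised none, and lowered 208 genes (1.37%) and raised 2 (0.0132%) with Lupron. Both arms shared 130 of these genes, which is 77.4% of those called without Lupron and 61.9% of those called with it. The 130 genes had a median effect of -2.11 without and -2.21 with Lupron, and a median interaction of -0.05, with a range from -1.25 to 2.31. The interaction interval held 0 in 126 of the 130. Of the 248 genes called in either arm, 243 had the same sign in both arms and 219 had an interaction interval that held 0. Both sets were chosen by their calls in these arms, and the 130 for passing in both. Likeness between the arms is thus partly built in, and these counts do not test the interaction. With 12 libraries 1 gene passed in the arm without Lupron (0.00663%), Fcna, and none in the arm with Lupron. When each library was left out in turn, the number called ran from 0 to 2611 without Lupron, with 2611 without IgG replicate 1, and from 0 to 210 with Lupron, with 13 without IgG replicate 2. The pairs of libraries behind the antibody effects share no tumour.

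The genes of the targets came first. Csf1 itself, the ligand, stood at 72.8, 109 and 33.6 CPM in the IgG tumours and 73.5, 36.0 and 76.0 with the antibody. In the Lupron tumours it stood at 98.6, 48.6 and 60.8 CPM, and in the combination at 59.2, 33.5 and 81.9. All groups overlapped, and the interaction estimate of Csf1 was -0.04 ± 0.66.

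Csf1r, the receptor, reached 113, 148 and 51.9 CPM in the IgG tumours and 27.1, 10.9 and 25.3 CPM in the anti-CSF1 tumours. Under Lupron it reached 139, 80.5 and 106 CPM, and in the combination 24.0, 15.1 and 19.8 CPM. Every tumour given the antibody lay below every tumour that was not, with or without Lupron. The fitted antibody effect on Csf1r was -2.30 ± 0.43 without and -2.46 ± 0.44 with Lupron. Both passed edgeR's test once IgG replicate 3 was left out, at -2.62 (adjusted p = 0.00689) and -2.46 (adjusted p = 0.00436). Its interaction was -0.16 ± 0.59 (interval -1.45 to 1.13), and 0.16 ± 0.49 (interval -0.91 to 1.23) without IgG replicate 3. An interaction of 1 log2 unit in either direction lay inside the interval with 12 libraries. In bulk RNA, fewer macrophages and less RNA per macrophage cannot be told apart.

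Macrophage genes were lower with the antibody in both arms by similar amounts. Of the 28 macrophage markers, all tested, 15 were called lower without Lupron (background 1.11%) and 14 with Lupron (background 1.37%) in the fit without IgG replicate 3. With 12 libraries the median effect was -2.17 without and -2.08 with Lupron. The interaction median was -0.10 (0.17 without IgG replicate 3), against -0.02 for all genes, with 12 of the 28 above 0, and 25 of the 28 intervals held 0. The 28 genes summed to between 804 and 2468 CPM in the IgG tumours and between 1919 and 2363 in the Lupron tumours. The sums were 504 to 701 CPM with anti-CSF1 and 468 to 602 CPM in the combination, so the antibody groups lay below both others without overlap. In each library between 0 and 2 of the 28 markers had no count.

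Genes with the strongest evidence for an antibody effect of the same sign in both arms were chosen for that likeness, so their values are a description of levels and interval widths. They included Csf1r, Csf2ra, Hpgds, Adap2 and Clec4a2. Csf2ra, the alpha chain of the GM-CSF receptor, stood at 50.1, 64.3 and 42.4 CPM with IgG and 15.1, 19.8 and 18.7 with anti-CSF1. With Lupron it stood at 51.4, 47.8 and 61.2 CPM, and in the combination at 19.2, 21.3 and 20.5. Csf2ra thus fell to about the same level in both arms, and its interaction of 0.15 ± 0.28 had an interval from -0.46 to 0.77.

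Hpgds, which makes prostaglandin D, had effects of -2.82 ± 0.43 without and -2.69 ± 0.43 with Lupron, with an interaction between -1.11 and 1.37. Clec4a2, a C-type lectin receptor of myeloid cells, had the widest interval of these, from -1.63 to 1.81, around 0.09. Adap2, a regulator of Arf GTPases, had effects of -1.72 ± 0.31 and -2.23 ± 0.32. In Hpgds, as in the others named, every antibody tumour lay below every tumour without antibody within its arm.

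**Figure D2:**
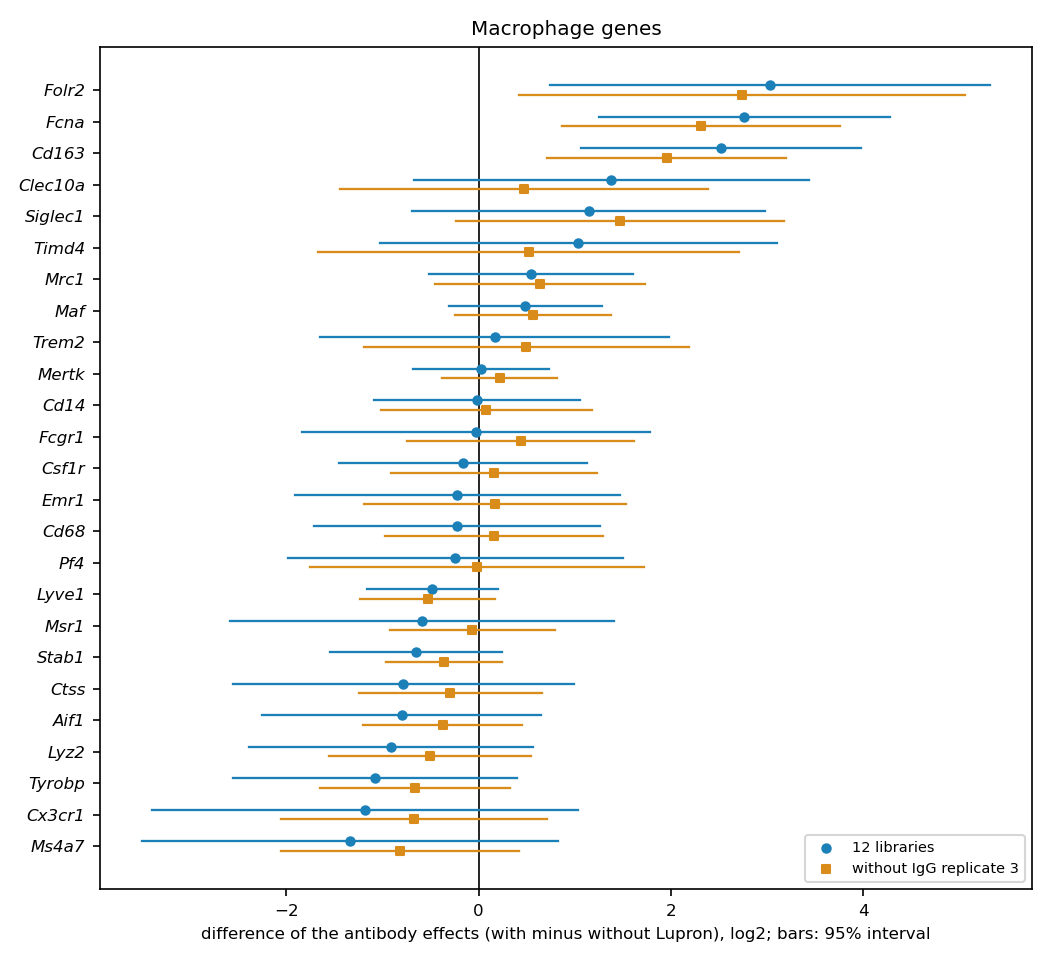
Interaction estimate (log2, x axis) of macrophage markers, with 95% intervals, with 12 libraries and without IgG replicate 3. With 12 libraries the intervals of Fcna, Cd163 and Folr2 lie above 0 and those of the other markers drawn cross it.

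With 12 libraries the interaction of 3 of the 28 macrophage markers passed an unadjusted p of 0.05 above 0 (background 6.07%), and of 0 below 0 (background 0.696%). These 3 were Fcna, Cd163 and Folr2, and none passed after adjustment. They are the genes of a lectin that starts the lectin pathway of complement, of the scavenger receptor for haemoglobin and haptoglobin, and of folate receptor beta. Fcna lies on chromosome 2 at 25624665 to 25635440 (GRCm38.p6), and 194 of the 250 bases before the start in the RefSeq promoter table, the rest overlapping an annotated exon, are shown because Fcna was the gene with the clearest antibody effect. The start that the table uses lies inside this span, which reaches further upstream on the minus strand. The sequence is from RefSeq, minus strand, chr2:25628031-25628224, and the capitals mark GAGGAAG, a core sequence bound by the myeloid factor PU.1.

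Fcna: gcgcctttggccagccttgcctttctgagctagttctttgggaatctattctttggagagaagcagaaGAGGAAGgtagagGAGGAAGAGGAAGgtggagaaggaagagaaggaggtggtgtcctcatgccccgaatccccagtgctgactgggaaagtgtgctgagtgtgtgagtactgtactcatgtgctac

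GAGGAAG occurs 3 times in this window, 182, 169 and 163 bases before the start, the last 2 matches overlapping by 1 base. On both strands, 10.6% of 32851 RefSeq promoters hold it within 250 bases before the start. A match describes the letters only.

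Fcna stood at 6.43, 24.4 and 32.4 CPM in the IgG tumours and at 0.510, 0.521 and 0.498 CPM with anti-CSF1. It stood at 3.92, 4.93 and 4.76 CPM with Lupron and at 0.743, 0.853 and 0.654 CPM in the combination. None of the 4 groups overlapped another that differed from it by 1 treatment: Lupron tumours lay below IgG tumours, and combination tumours lay above anti-CSF1 tumours. The antibody effect was -5.36 ± 0.56 without Lupron, edgeR adjusted p = 0.0153, and -2.59 ± 0.50 with Lupron. The interaction of Fcna was 2.76 ± 0.69 (interval 1.25 to 4.28), and 2.31 ± 0.66 without IgG replicate 3. Without IgG replicate 1, the IgG tumour with the lowest Fcna, the interaction of Fcna did pass, at 3.20 with edgeR adjusted p = 0.0318.

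Cd163 showed the antibody effect in the arm without Lupron. Its level was 7.11, 23.3 and 37.3 CPM with IgG and 2.96, 4.41 and 4.41 CPM with anti-CSF1. It was 5.31, 7.51 and 7.05 CPM with Lupron and 6.18, 6.51 and 7.20 CPM in the combination. The last 2 groups overlapped, while anti-CSF1 tumours lay below IgG tumours. The effects were -2.52 ± 0.49 and 0.00 ± 0.46, and the interaction was 2.53 ± 0.66, or 1.96 ± 0.57 without IgG replicate 3. Folr2 had effects of -4.63 ± 0.82 without and -1.60 ± 0.73 with Lupron and an interaction of 3.03 ± 1.04. In Fcna, Cd163 and Folr2 alike, IgG replicate 1 was the lowest IgG tumour and lay closest to the Lupron tumours. The same 2 IgG libraries, replicates 2 and 3, held the highest fat and smooth muscle sums; the part of this in the 3 genes' estimates was not tested.

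Emr1, chosen after its values were seen, encodes the macrophage surface protein F4/80. It stood at 48.5, 105 and 21.6 CPM with IgG and 12.6, 3.46 and 8.67 CPM with anti-CSF1. Under Lupron it stood at 56.6, 50.8 and 53.4 CPM, and at 8.92, 4.43 and 6.20 CPM in the combination. Antibody tumours lay below the others in both arms, and the interaction was -0.22 ± 0.77. Both antibody effects on Emr1 passed the test once IgG replicate 3 was left out, at -3.21 ± 0.47 and -3.04 ± 0.45.

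MHC class II genes lay below 0 throughout the list with 12 libraries, where 48.6% of all genes lay above 0. None of the 11 passed even the unadjusted threshold (background 0.696% below 0). These genes encode the chains that present peptides to CD4+ T cells and the proteins that load them. The interaction median was -1.04, against -0.02 for all genes, with all 11 estimates below 0 and all 11 intervals holding 0. The median was -0.73 without IgG replicate 3, and 10 of the 11 lay below 0. The median antibody effect was -1.62 without and -2.67 with Lupron. In the fit without IgG replicate 3, 6 of the 11 were called lower without Lupron (background 1.11%) and 7 with it (background 1.37%).

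The summed level of the 11 genes shows where the groups parted. It was 1989, 1906 and 782 CPM in IgG tumours and 793, 220 and 411 CPM in anti-CSF1 tumours. It was 2996, 2570 and 2994 CPM in Lupron tumours, and 339, 395 and 568 CPM in the combination. Lupron tumours lay above IgG tumours, whereas the antibody groups overlapped each other. IgG replicate 3 was the lowest IgG tumour and fell below anti-CSF1 replicate 1.

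H2-Aa and H2-Eb1 encode 1 chain each of the MHC class II molecules I-A and I-E, and H2-Eb1 was chosen after its values were seen. Whether either molecule reached the cell surface in these mice was not measured. Their 250 bases before the start (RefSeq, GRCm38.p6) are shown because MHC class II genes are known to share promoter elements. Capitals mark TGATTGG, part of the Y box, an element bound by NF-Y. H2-Aa is at chr17:34287824-34288073 on the minus strand and H2-Eb1 at chr17:34305617-34305866 on the plus strand.
H2-Aa: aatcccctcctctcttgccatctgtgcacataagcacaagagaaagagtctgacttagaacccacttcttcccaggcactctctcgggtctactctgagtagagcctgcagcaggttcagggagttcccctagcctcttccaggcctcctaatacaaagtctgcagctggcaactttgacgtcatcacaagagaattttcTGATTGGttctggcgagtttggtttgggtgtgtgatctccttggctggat
H2-Eb1: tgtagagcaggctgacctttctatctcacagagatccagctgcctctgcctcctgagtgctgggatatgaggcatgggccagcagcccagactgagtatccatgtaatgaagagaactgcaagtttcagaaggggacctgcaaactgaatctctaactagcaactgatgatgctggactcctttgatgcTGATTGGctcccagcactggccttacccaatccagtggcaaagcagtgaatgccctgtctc

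TGATTGG lies 50 bases before the start of H2-Aa and 61 before that of H2-Eb1, and 7.23% of 32851 promoters hold it on either strand. The match describes letters only.

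H2-Aa stood at 218, 207 and 88.0 CPM with IgG and at 97.4, 33.0 and 36.5 CPM with anti-CSF1. It stood at 356, 389 and 356 CPM with Lupron and at 41.8, 64.7 and 66.2 CPM in the combination. The highest level was thus in the Lupron tumours, above all IgG tumours, and both antibody groups overlapped. The antibody effect on H2-Aa was -1.62 ± 0.45 and -2.67 ± 0.46, and the interaction was -1.05 ± 0.62 (interval -2.41 to 0.30). H2-Eb1 had an interaction of -1.02 ± 0.71 and H2-Ab1, the other chain of I-A, of -0.94 ± 0.61.

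H2-DMb1, a subunit of the peptide loader DM, had the smallest p of the list. Its level was 26.9, 32.8 and 12.8 CPM with IgG and 9.39, 4.17 and 4.83 CPM with anti-CSF1. It was 50.3, 45.4 and 36.4 CPM with Lupron and 4.85, 5.55 and 5.41 CPM in the combination. Lupron tumours lay above IgG tumours and the antibody groups overlapped, as for H2-Aa. The interaction of H2-DMb1 was -1.09 ± 0.52, and -0.79 ± 0.42 without IgG replicate 3. H2-Oa, a subunit of DO, which restrains DM, had an interaction of -1.77 ± 1.17.

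T cell genes also lay mostly below 0, without passing. Of 17 tested markers 3 had an estimate above 0, against 48.6% of all genes. With 12 libraries 0 passed the unadjusted threshold (background 6.07% above 0 and 0.696% below 0). The median was -0.94, or -0.57 without IgG replicate 3. The median antibody effect was -0.02 without and -1.19 with Lupron. Summed levels were 61.9, 74.5 and 19.1 CPM with IgG and 59.8, 39.3 and 27.8 CPM with anti-CSF1. They were 79.2, 111 and 110 CPM with Lupron and 25.97, 53.3 and 44.1 CPM in the combination. The combination thus lay below Lupron without overlap, while the other pair overlapped.

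Cd4, the coreceptor of helper T cells that mouse myeloid cells can also express, was called lower in both arms without IgG replicate 3. It stood at 8.18, 11.1 and 3.67 CPM with IgG and 3.33, 2.04 and 2.81 CPM with anti-CSF1. It stood at 14.2, 13.8 and 12.1 CPM with Lupron and 2.39, 1.81 and 2.34 CPM in the combination. Lupron tumours were the highest, and the antibody groups overlapped at a low level. The interaction of Cd4 was -1.13 ± 0.54 (interval -2.32 to 0.07). Cd8a, the coreceptor of cytotoxic T cells, had effects of 0.11 ± 0.80 and -1.62 ± 0.82, and Cd3g, part of the T cell receptor complex, of 0.02 ± 0.66 and -1.54 ± 0.67. Foxp3, the transcription factor of regulatory T cells, was on the other side, with an interaction of 1.68 ± 1.13.

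Gzmb and Gzmc, which encode proteases of cytotoxic granules, were the 2 genes called higher by the antibody with Lupron in the fit without IgG replicate 3. Without Lupron no gene of any kind was called higher in that fit (0% of 15196 genes), so the lack of such NK or cytotoxic cell markers is not particular to them. Gzmc stood at 32.0, 8.89 and 0.570 CPM with IgG and 72.3, 197 and 189 CPM with anti-CSF1. It stood at 15.3, 23.7 and 20.01 CPM with Lupron and 315, 150 and 127 CPM in the combination. The antibody groups lay above the others in both arms and overlapped each other. The interaction of Gzmc was -0.14 ± 1.28 and that of Gzmb -0.08 ± 1.00, or 0.43 ± 0.77 and 0.46 ± 0.49 without IgG replicate 3. Across the 18 tested NK and cytotoxic cell markers the median effect was 1.38 without and 1.10 with Lupron, and the median interaction moved from -0.32 to 0.16 once IgG replicate 3 was left out.

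The genes with the lowest p above 0 were high in IgG tumours, mainly IgG replicate 3 or, with that library left out, IgG replicate 2. Of the 916 genes above 0 at the unadjusted threshold, 837 (91.4%) had their highest level in IgG replicate 3, which held the highest level of 30.7% of all tested genes. Another 61 (6.66%) peaked in IgG replicate 2, near its share of 7.25% of all tested genes. The group with the highest mean was IgG in 900 of the 916, and the lowest mean was that of anti-CSF1 in 687 and that of Lupron in 211. Low means of the single treatments, and a high mean of IgG or the combination, partly follow from choosing genes above 0. These counts describe the chosen genes only. Without IgG replicate 3, 356 of the 430 genes (82.8%) peaked in IgG replicate 2 and 53 (12.3%) in combination replicate 1. The shares over all tested genes were not counted in that fit. The fits shared 395 of these genes.

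The 10 genes named from this side with 12 libraries were Anxa13, Ly6f, Car3, Nnat, Cyp2e1, Svep1, Sfrp1, Pon1, Apoc1 and Tnxb. Anxa13, an annexin of epithelial cells, had the smallest p of all genes. It stood at 6.66, 17.7 and 60.5 CPM with IgG and at 0.034, 0 and 0.107 CPM with anti-CSF1. It stood at 3.31, 1.95 and 1.18 CPM with Lupron and at 6.38, 0.533 and 2.07 CPM in the combination. Only the anti-CSF1 group was near 0, with 4 counts over 3 tumours. The interaction of Anxa13 was 9.49 ± 1.61, or 8.27 ± 1.38 without IgG replicate 3.

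Svep1, a large extracellular matrix protein, reached 6.28, 19.4 and 40.3 CPM with IgG and 1.12, 1.04 and 0.498 CPM with anti-CSF1. With Lupron it reached 1.76, 3.61 and 2.19 CPM, and in the combination 13.0, 1.01 and 6.58 CPM. Combination replicates 1 and 3 were above the Lupron tumours and replicate 2 was below them. Its interaction was 6.08 ± 1.22. Car3, a carbonic anhydrase abundant in fat and muscle, ran from 10.1 to 1272 CPM over the IgG tumours and had 3 counts in all over the anti-CSF1 tumours. In the combination Car3 was 110, 1.12 and 25.5 CPM, so a single library again led its group.

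Fat cell genes were the list farthest above 0. All 10 tested members had an estimate above 0 and passed the unadjusted threshold with 12 libraries (background 6.07%), and 9 did so without IgG replicate 3 (background 2.83%). In 6 of them a group had no count, so fitted estimates have no fixed size; with such groups set to a limit of 3 counts, the median was 11.43, and 8.23 without IgG replicate 3. Adipoq, which encodes adiponectin, stood at 1.48, 19.1 and 140 CPM with IgG (4415 counts) and had no count in the anti-CSF1 tumours, which is at least 1477-fold lower over the pooled counts, or at least 259-fold lower without IgG replicate 3, limits that cover counting error only. It stood at 1.56, 0 and 1.22 CPM with Lupron and at 23.2, 0 and 2.24 CPM in the combination. Cfd, the complement protease made by fat cells, followed the same order, with 10.0, 149 and 963 CPM with IgG and 77.2, 0.427 and 21.1 CPM in the combination.

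The summed fat signal was 52.8, 364 and 2437 CPM in IgG tumours and 23.4, 65.7 and 38.3 CPM in anti-CSF1 tumours. It was 49.1, 58.1 and 39.3 CPM in Lupron tumours, and 249, 38.9 and 65.1 CPM in the combination. Within the IgG group and within the combination, a single library held most of the signal. Plin4, a coat protein of lipid droplets, had an interaction of 9.55 ± 2.199 and Lpl, the lipase that frees fatty acids from lipoproteins, of 6.71 ± 1.53. Fabp4, a fatty acid carrier, had an interaction of 3.63 ± 1.36, which was 1.57 ± 0.96 without IgG replicate 3 and no longer passed the unadjusted threshold. The share of adjacent fat in each sample was not measured, and its part in these values was not tested.

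**Figure D3:**
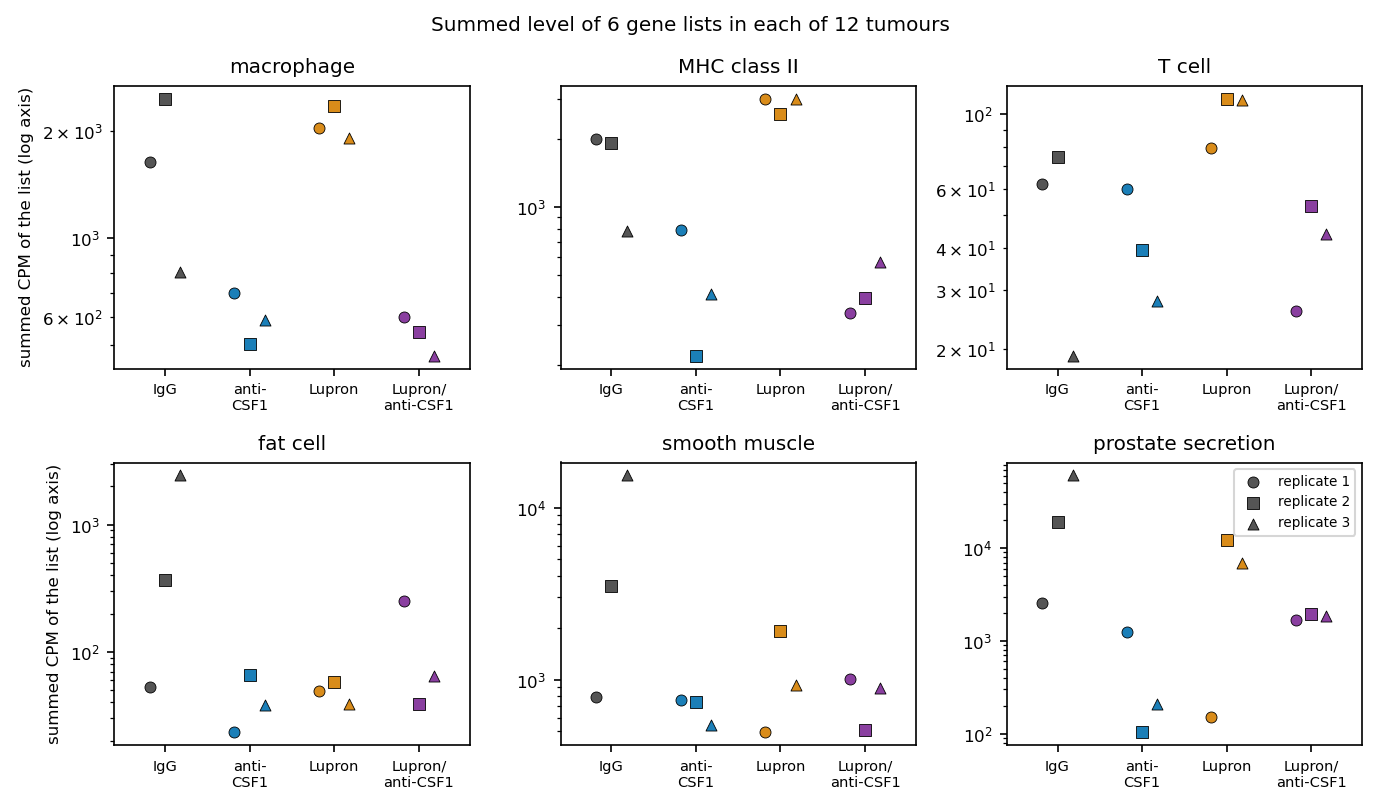
Summed CPM of 6 gene lists (log y axis) in each of the 12 tumours, by group (x axis). IgG replicate 3 leads the fat sum at 2437 CPM; the macrophage sums of both antibody groups lie below those of the other groups.

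Other cells of the normal prostate and its surroundings followed the fat genes less steeply. Smooth muscle markers had 7 of 12 members above 0 at the unadjusted threshold (background 6.07%) and a median of 3.32, which fell to 1.57 without IgG replicate 3. In that fit 2 of the 12 passed above 0 (background 2.83%). Myh11, smooth muscle myosin, was 153, 1021 and 5981 CPM with IgG and 112, 75.9 and 39.0 CPM with anti-CSF1. It was 50.9, 416 and 199 CPM with Lupron and 251, 69.2 and 204 CPM in the combination. Only the pair without Lupron was separated, and the interaction of Myh11 went from 4.63 ± 1.56 to 2.61 ± 1.25 when IgG replicate 3 was left out.

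Basal epithelial markers (4 of 8) and luminal markers (4 of 12) also had members above 0 at that threshold, against the same background of 6.07%, with medians of 3.09 and 1.91. The medians were 1.46 and 0.98 without IgG replicate 3, where 3 of 8 basal and 1 of 12 luminal markers passed above 0 (background 2.83%). Krt5, a keratin of basal cells, was 485 CPM in IgG replicate 3 and 3.80 and 16.9 CPM in the other IgG tumours. Its interaction changed from 7.02 ± 2.11 to 2.99 ± 1.28. Skeletal muscle markers had 4 of 8 members above 0 at that threshold (background 6.07%) and a median of 3.12, or 1.61 without IgG replicate 3. In the latter fit 1 of the 8 passed above 0 (background 2.83%). Genes of normal prostate secretion had 3 of 9 members above 0 at that threshold with 12 libraries (background 6.07%). Without IgG replicate 3 this was 1 of 9 (background 2.83%). Seminal vesicle genes, by contrast, had 9 of 9 estimates below 0 with a median of -2.77, and none passed the unadjusted threshold (background 0.696% below 0). Their sums ranged from 277 to 379070 CPM and every pair of groups overlapped.

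Complement genes had 5 of 16 members above 0 at the unadjusted threshold (background 6.07%), namely Cfd, C4b, C1s, C2 and C3, and none below. The list's median was 0.54, and 0.56 without IgG replicate 3. C4b, a component of the classical and lectin pathways, stood at 21.5, 46.0 and 158 CPM with IgG and 8.20, 1.75 and 1.28 CPM with anti-CSF1. It stood at 10.6, 13.8 and 8.20 CPM with Lupron and 28.7, 3.41 and 9.88 CPM in the combination. The groups without Lupron were separated, those with Lupron overlapped, and the interaction of C4b was 4.69 ± 1.33, or 3.54 ± 1.19 without IgG replicate 3. C3, the central component, had an interaction of 3.54 ± 1.33, which was 1.97 ± 1.09 without IgG replicate 3.

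**Figure D4:**
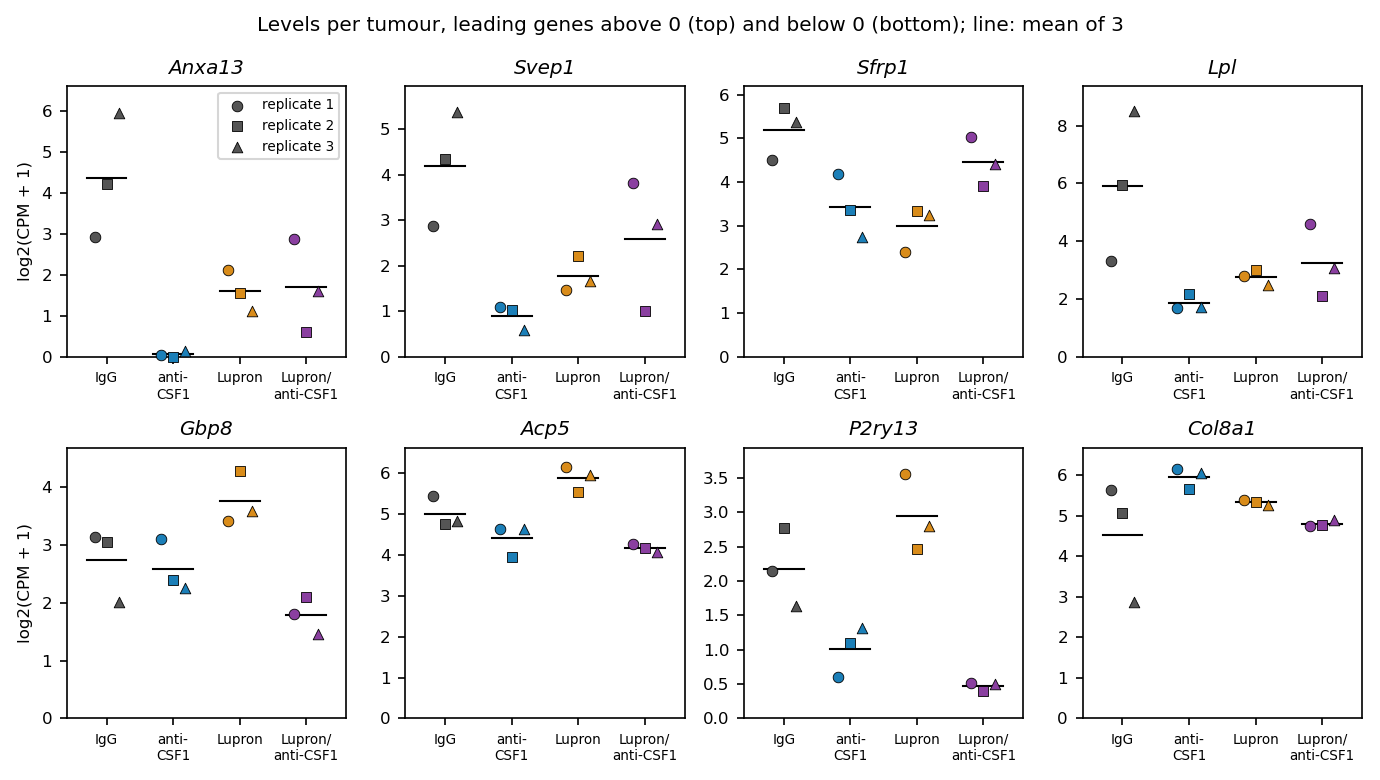
Levels, as log2(CPM + 1), of 4 genes above 0 (Anxa13, Svep1, Sfrp1, Lpl, top) and 4 below 0 (Gbp8, Acp5, P2ry13, Col8a1, bottom) in each tumour, by group. A line marks the mean of the 3 plotted values. The upper genes are highest on average in IgG tumours (Sfrp1 50.3 CPM in replicate 2), the lower ones in Lupron or anti-CSF1 tumours. Gbp8, Acp5 and P2ry13 are lowest on average in the combination, whereas the lowest tumour for Col8a1 is IgG replicate 3.

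Sfrp1 was among 13 genes whose antibody effects had opposite signs in the 2 arms, each at an unadjusted p under 0.05 in edgeR's test. It encodes a secreted protein that binds Wnt ligands, and lies on chromosome 8 at 23411383 to 23449632 (GRCm38.p6). Its level was 21.6, 50.3 and 40.6 CPM with IgG and 17.3, 9.24 and 5.65 CPM with anti-CSF1. It was 4.29, 9.12 and 8.55 CPM with Lupron and 31.8, 14.1 and 20.1 CPM in the combination. The single treatments both lay below IgG, and the combination lay above Lupron, with no overlap in these 3 comparisons. The antibody effect was -1.80 ± 0.49 without and 1.59 ± 0.49 with Lupron, and the interaction was 3.40 ± 0.69 (interval 1.88 to 4.91). It was 3.34 ± 0.70 without IgG replicate 3, so this estimate did not rest on that library.

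Opposite signs with both effects at that threshold were found for 13 of 15082 genes with 12 libraries, 12 of them lower without and higher with Lupron. Of all genes 16.7% were lower at that threshold without and 0.676% higher with Lupron. Leaving out IgG replicate 3 gave 15 of 15196, 14 of them in this direction, where 10% of all genes were lower and 1.57% higher. Whether these counts exceed what such shares would give was not tested. Those named by rule were Sfrp1, Pon1, Mfap5, Lgals12, Saa3 and Gsdmc3. Mfap5, a protein of elastic microfibrils, was 5.86, 18.9 and 14.2 CPM with IgG, and 6.84, 5.50 and 3.66 CPM with anti-CSF1. It was 3.62, 8.72 and 5.00 CPM with Lupron and 21.6, 8.69 and 12.9 CPM in the combination. These groups overlapped in both arms, and the interaction of Mfap5 was 2.60 ± 0.71. Saa3, an acute phase protein, had effects of -2.53 ± 0.94 and 2.23 ± 0.93; combination replicate 1, at 46.3 CPM, was far above replicates 2 and 3 at 6.61 and 7.33.

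Pon1, a paraoxonase carried on HDL, had 392 counts over the IgG tumours, 1 with the antibody alone, 0 with Lupron alone and 24 in the combination. The combination was at least 8.27-fold above Lupron, with the limit of 3 counts over the group, and covers counting error only. Gsdmc3, a gasdermin, had 526 counts over the IgG tumours, none with either single treatment and 37 in the combination. Lgals12, a galectin of fat cells, had 513, 6, 0 and 49 counts in the order IgG, antibody, Lupron, combination. These 3 genes thus had few counts outside the IgG group.

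Genes below 0 were fewer, and 1 of them had its highest level in IgG replicate 3. Among the 105 at the unadjusted threshold the highest group mean was that of anti-CSF1 in 52 and of Lupron in 49. The lowest was that of IgG in 68 and of the combination in 37. This order of the means partly follows from choosing genes below 0. The highest library was anti-CSF1 replicate 2 in 40 (38.1%, against 8.08% of all tested genes) and Lupron replicate 2 in 24 (22.9%, against 9.16%). The fits shared 58 of these genes, and 47 passed with 12 libraries only, so this side also changed with IgG replicate 3. The 10 named with 12 libraries were Gbp8, Il8 (the symbol in the table), Supt3, Acp5, Pgr, P2ry13, Cyp7b1, Znrd1, Kirrel3 and C1ql3.

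Gbp8, of the interferon-inducible guanylate-binding proteins, was 7.84, 7.30 and 3.06 CPM with IgG and 7.62, 4.27 and 3.80 CPM with anti-CSF1. It was 9.74, 18.5 and 11.1 CPM with Lupron and 2.50, 3.31 and 1.76 CPM in the combination. Lupron tumours were the highest and combination tumours lay below both single treatments. The antibody effect on Gbp8 was -0.21 ± 0.45 without and -2.38 ± 0.47 with Lupron; without IgG replicate 3 the latter passed edgeR's test (adjusted p = 0.00806). The interaction was -2.16 ± 0.64 (interval -3.57 to -0.76), or -1.85 ± 0.55 without IgG replicate 3.

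Acp5, the tartrate-resistant acid phosphatase of osteoclasts and macrophages, was 42.9, 26.05 and 27.6 CPM with IgG and 23.9, 14.5 and 24.0 CPM with anti-CSF1. It was 70.0, 45.7 and 60.9 CPM with Lupron and 18.4, 17.0 and 15.8 CPM in the combination. All Lupron tumours lay above all IgG tumours, and the antibody groups overlapped. The effects were -0.63 ± 0.27 and -1.79 ± 0.27, and the interaction of Acp5 was -1.16 ± 0.38, or -1.06 ± 0.38 without IgG replicate 3.

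P2ry13, a receptor for ADP on myeloid cells, was 3.42, 5.80 and 2.10 CPM with IgG and 0.510, 1.14 and 1.49 CPM with anti-CSF1. It was 10.8, 4.53 and 5.97 CPM with Lupron and 0.430, 0.320 and 0.413 CPM in the combination. Combination tumours lay below all others. The antibody effect was -1.85 ± 0.55 and -4.17 ± 0.61, and the interaction of P2ry13 was -2.33 ± 0.77. Cyp7b1, an oxysterol hydroxylase, had effects of 0.82 ± 0.38 and -0.78 ± 0.38 and an interaction of -1.60 ± 0.53. Supt3, a subunit of a transcription coactivator complex, had an interaction of -0.85 ± 0.27, and Znrd1, a subunit of RNA polymerase I, of -0.74 ± 0.25. Pgr, the progesterone receptor, had 154 counts over the IgG tumours, 317 with the antibody alone, 88 with Lupron alone and 23 with both, and an interaction of -3.03 ± 1.01. Il8 rested on Lupron replicate 1, at 38.3 CPM against 6.71 and 2.74 in the other Lupron tumours.

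Leaving out IgG replicate 3 brought other genes to the top of this side, among them Havcr2, Col8a1, Crabp2 and Cxcr4. Havcr2, the immune checkpoint receptor TIM-3, was 19.5, 16.5 and 1.14 CPM with IgG and 10.8, 12.9 and 9.49 CPM with anti-CSF1. It was 25.0, 23.8 and 30.2 CPM with Lupron and 6.61, 7.73 and 7.09 CPM in the combination. IgG replicate 3 was the lowest of all 12 tumours for this gene. Without it, the effects were -0.71 ± 0.21 and -1.88 ± 0.20 and the interaction of Havcr2 was -1.18 ± 0.29 (interval -1.81 to -0.55), against -1.72 ± 0.95 with 12 libraries.

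Col8a1, a collagen of vessel walls, was 48.8, 32.2 and 6.34 CPM with IgG and 69.5, 49.6 and 65.5 CPM with anti-CSF1. It was 41.0, 39.3 and 37.5 CPM with Lupron and 25.8, 26.2 and 28.5 CPM in the combination. The antibody group was above IgG and the combination below Lupron, each without overlap. The interaction of Col8a1 was -1.15 ± 0.29 without IgG replicate 3. Cxcr4, the receptor for CXCL12, had an interaction of -1.59 ± 0.53 and Crabp2, a carrier of retinoic acid, of -1.70 ± 0.48 in the same fit. Il1b, the inflammatory cytokine, had effects of 0.07 ± 0.82 and -1.74 ± 0.85 with 12 libraries. Without IgG replicate 3, where Il1b stood at 0.605 CPM, its interaction was -1.24 ± 0.43. The antibody effect with Lupron then passed edgeR's test for Il1b (adjusted p = 0.0106), as for Havcr2 and Cxcr4, and the interaction did not for any of these.

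Single members of other immune and vessel lists lay on either side of 0. Irf8, a transcription factor of dendritic cells and monocytes, had an interaction of -0.73 ± 0.31, and Zbtb46, a marker of classical dendritic cells, of -1.44 ± 0.63. Cd209a, a lectin of dendritic cells and the member with the smallest p, lay on the other side, at 5.81 ± 1.75, with 4 counts in all over the anti-CSF1 tumours. The median of the 12 dendritic cell markers was -0.37, or -0.0047 without IgG replicate 3. In that fit no member passed the unadjusted threshold below 0 (background 0.632%) and 1 did above 0 (background 2.83%). Cldn5, the claudin of endothelial junctions, had effects of 1.42 ± 0.43 and -0.32 ± 0.42, whereas Tek, the angiopoietin receptor on the same cells, had an interaction of 1.26 ± 0.41. Junb, an immediate early gene, was 101, 44.2 and 55.5 CPM with IgG and 134, 156 and 131 CPM with anti-CSF1. With Lupron Junb was 106, 75.6 and 102 CPM, and in the combination 84.9, 113 and 85.3 CPM. Only the pair without Lupron was separated, and the interaction was -1.07 ± 0.40.

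Cholesterol synthesis genes had estimates close to 0 and narrow spreads. Of 23 tested members 0 passed the unadjusted threshold with 12 libraries (background 6.07% above 0 and 0.696% below 0). The estimates ran from -0.47 to 0.52, and the median was 0.04, or 0.02 without IgG replicate 3. Summed levels were 1427, 1034 and 1178 CPM in IgG tumours and 1612, 1212 and 1621 CPM in anti-CSF1 tumours. They were 1520, 966 and 1516 CPM in Lupron tumours, and 1547, 1781 and 1733 CPM in the combination. Hmgcs1, which feeds the pathway, had an interaction of 0.45 ± 0.34 and Stard4, a sterol carrier, of -0.47 ± 0.38. Among 19 genes of cholesterol uptake, storage and efflux, 4 lay above 0 at that threshold (background 6.07%): Apoc1, Lpl, Cd36 and Mylip. The median of that list was -0.07.

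Apoe, which encodes apolipoprotein E, a protein of lipoprotein particles, was chosen after its values were seen and behaved like the MHC class II genes. It stood at 1430, 1269 and 674 CPM with IgG and 430, 268 and 429 CPM with anti-CSF1. It stood at 1625, 1715 and 1610 CPM with Lupron and 374, 285 and 246 CPM in the combination. Lupron tumours lay above IgG tumours, and the antibody groups overlapped. The effects on Apoe were -1.58 ± 0.32 and -2.45 ± 0.33, and the interaction was -0.87 ± 0.45 (interval -1.85 to 0.11).

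Androgen response genes had 4 of 18 members above 0 at the unadjusted threshold (background 6.07%), Hpgd, Steap4, Tmprss2 and Slc45a3, and a median of 0.94. Without IgG replicate 3 there were 2 such members (background 2.83%) and the median was 0.38. Hpgd, which inactivates prostaglandins, was 51.4, 209 and 668 CPM with IgG and 11.8, 6.68 and 3.34 CPM with anti-CSF1. It was 27.5, 50.6 and 15.1 CPM with Lupron and 78.4, 9.76 and 20.2 CPM in the combination. The 2 groups without Lupron were separated and those with Lupron overlapped, and the interaction of Hpgd was 5.63 ± 1.39. Tmprss2, a surface protease, had an interaction of 3.37 ± 1.31, which was 2.04 ± 1.14 without IgG replicate 3.

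Proliferation genes lay below 0 in 23 of 24 cases with 12 libraries, with a median of -0.52, while without IgG replicate 3 the median was 0.02 and 13 of 24 lay above 0. Interferon response genes had a median of -0.04 (21 tested) and hypoxia and glycolysis genes of -1.14 (16 tested), or 0.30 and -0.76 without IgG replicate 3. Matrix remodelling genes had a median of -0.80 (18 tested) and inflammatory cytokines of -0.55 (19 tested), or -0.42 and -0.15 without it. In each of these 4 lists at most 1 member passed the unadjusted threshold above 0 with 12 libraries (background 6.07%), and none below 0 (background 0.696%). Without IgG replicate 3, 2 inflammatory cytokines passed above 0 (background 2.83%) and 1 below 0 (background 0.632%).

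**Figure D5:**
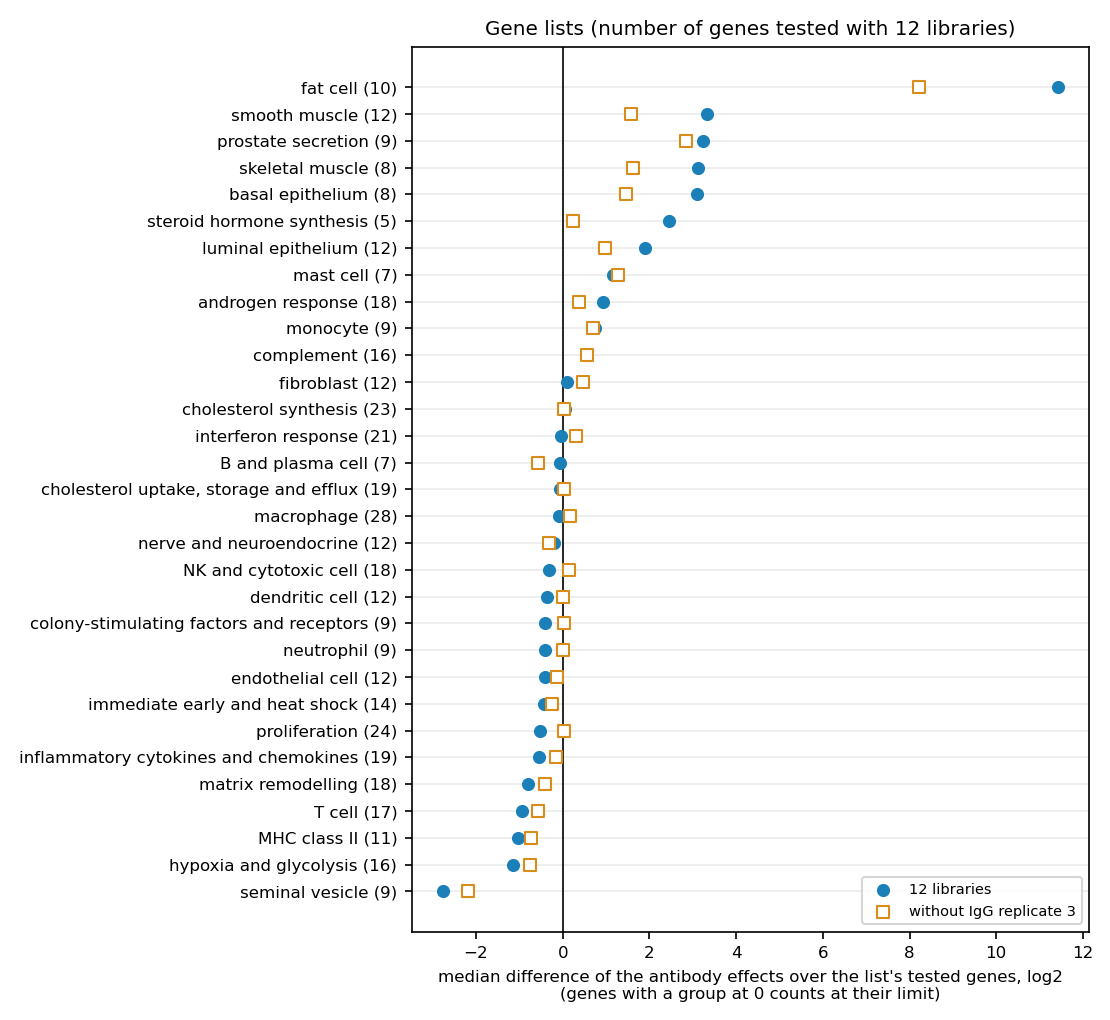
Median interaction estimate (log2, x axis) of each gene list, with 12 libraries and without IgG replicate 3; genes with a group at 0 counts are set to their limit. Fat cell genes lie farthest above 0 (11.43 and 8.23) and seminal vesicle genes farthest below (-2.77 and -2.19).

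The Lupron effects, which the same interaction compares the other way round, held no gene called by edgeR in either fit (0% of 15082 and of 15196 genes). With 12 libraries 2478 genes passed an unadjusted p of 0.05 without the antibody and 294 with it, and DESeq2 called 404 and 6. Without IgG replicate 1, edgeR called 653 for the Lupron effect without the antibody. Of the 6 genes with the strongest evidence for the same sign with and without the antibody, Mcc, Stc1 and F13a1 show the range of intervals. Mcc, a Wnt pathway gene mutated in colorectal cancer, was 24.2, 35.6 and 28.0 CPM with IgG and 14.4, 23.5 and 15.4 CPM with Lupron. With anti-CSF1 it was 19.9, 16.0 and 20.9 CPM, and in the combination 10.6, 8.69 and 11.7 CPM. Both treatments separated Mcc at either level of the other, and its interaction was -0.15 ± 0.35 (interval -0.91 to 0.62). Stc1, the hormone stanniocalcin, had an interaction of -0.32 ± 0.41 and F13a1, a coagulation factor chain made by macrophages, of 0.73 ± 0.68.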

How the data were processed

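RNA of 12 tumours, 3 per group, was extracted with RNeasy Plus columns and turned into libraries with NuGen's Ovation Mouse RNA-Seq kit, per the labels' protocols. The submitters' processing notes name mm10 as the build and bcl2fastq 2.20.0.422, cutadapt 1.8.1 and HTSeq 0.6.1 as tools. No source used here gives the aligner, annotation or strand setting, so antisense and overlapping genes and close paralogs may share reads. The authors deposited raw counts for 23479 symbols without normalization, 20584363 to 29965355 per library.

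Counts were fitted in R 4.3.3 with edgeR 4.0.16 (filterByExpr, TMM, 1 mean per group, robust quasi-likelihood fit, two-sided F test, Benjamini-Hochberg over all tested genes), with 15082 genes in 12 libraries and 15196 without IgG replicate 3. The interaction and the 4 effects of 1 treatment are contrasts of the same fit. An exact permutation test of 3 against 3 tumours was not used, since it cannot reach 0.05. CPM use TMM-scaled totals and compare tumours, not genes. Groups without a count were set to 3 counts over the group for limits. The script was tested on simulated counts. Alternatives were RLE and upper-quartile factors, DESeq2 1.42.0, limma 3.58.1 voom without and with sample weights, no filter or a filter of 1 CPM in 3 libraries, a fit that was not robust, the replicate number as a block, and leaving out each library; leaving out IgG replicates 2 and 3 together was also tried.

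The groups to compare and the 32 gene lists (446 symbols, 7 matched by an older symbol and 2 unmatched) were chosen with earlier results of these data known. Genes named are Csf1 and Csf1r; per fit and direction the 10 with the smallest p among those with a mean of at least 1 CPM, predicted genes left out; up to 4 per list by p; 6 each with the strongest evidence for the same sign in both antibody effects, or in both Lupron effects; and up to 6 with opposite antibody effects. Emr1, H2-Eb1, Apoe, Fabp4, Adipoq, C3, Gzmb, Gzmc, Pid1, Hey1, Rbfox1 and D630003M21Rik are named outside that rule where it did not reach them, after their values were seen. Promoter letters are from RefSeq, GRCm38.p6. Results for some genes that the rule names are not reported here.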

Additional observations from a re-analysis of the deposited data

How the results depend on the processing

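The interaction kept 0 called genes under RLE and upper-quartile factors, both voom fits, both other filters, the fit that was not robust and the replicate block, and DESeq2 called 188 (30 without IgG replicate 3). Leaving out each library gave 0 to 5 called genes, and 0 to 7 on top of IgG replicate 3; both maxima came without IgG replicate 1. The 5 were Fcna, Pid1, Hey1, Rbfox1 and D630003M21Rik. For the antibody effect without Lupron, RLE, upper-quartile factors and the stricter filter gave 2 called genes, DESeq2 1841, voom 0, voom with sample weights 2306 and the block 0, and leaving out each library 0 to 2611. For the antibody effect with Lupron the numbers were 5 with RLE and with the stricter filter, 7 with upper-quartile factors, 236 with DESeq2, 444 with weighted voom, 2 without a filter, and 0 to 210 leaving out each library. For the Lupron effect without antibody they were 404 with DESeq2, 1466 with weighted voom and 0 to 653 leaving out each library, and with antibody 6 with DESeq2. The cause of these moves was not tested.

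Whether same-numbered libraries pair could not be settled. Of 18 same-numbered pairs 7 correlated above 0.1 (r from -0.314 to 0.310), where pairs with different numbers ran from -0.465 to 0.389. Of the 12 libraries 7 correlated best with their own number. The labels do not say what the number marks, so the block, with 0 genes called, is given here only.

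Interaction estimates of named genes near 0 changed sign under some alternatives, and none of these values passed the test. With voom, Clec4a2 went to -0.12 and Hpgds to -0.10. Under weighted voom Csf1 was 0.46, Csf1r 0.18, Emr1 0.31, Gzmb 0.41, Hmgcs1 -0.074 and Mcc 0.24. With the replicate block Clec4a2 was -0.022 and Csf1 0.080. Without IgG replicates 2 and 3 together Csf1 was 0.0041, F13a1 -0.84, Gzmb 0.74, Gzmc 1.09 and Stard4 0.14, and 0 genes were called. Leaving out each library gave ranges of -0.42 to 0.52 for Clec4a2, -0.47 to 0.32 for Csf1, -0.51 to 0.16 for Csf1r, -0.027 to 0.28 for Csf2ra, -0.96 to 0.22 for Emr1, -0.74 to 0.46 for Gzmb, -1.70 to 0.43 for Gzmc, -0.30 to 0.49 for Hpgds and -0.32 to 0.16 for Mcc. List medians moved by less than the list's median standard error in 300 of 320 values under other settings and 376 of 384 with a library left out, but 18 and 37 of these values had changed sign; among them, without IgG replicate 3, the neutrophil median went from -0.41 to 0.013 and the interferon median from -0.040 to 0.30. With 3 tumours per group, the median interval reached 1.13 log2 units on either side of an estimate, which limits what can be called.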
